A study of Rattus norvegicus with 3 samples.

Results

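Cytochrome P450 genes, those whose rat symbol is Cyp followed by a number, were read in hippocampal RNA of healthy wild-type rats given Q808, a code-named candidate against seizures, by gavage for 28 days. Symbols were assigned by NCBI gene identifier, and 54 of the 18560 genes in the count table met the rule: 52 protein-coding genes and 2 pseudogenes, from 14 families. RefSeq holds 104 such genes, 90 of them protein coding, and those without a row in the count table could not be assessed. All 3 samples belong to this 1 treated group and no untreated sample was analysed here, so every value below is a level and none is a change caused by Q808. The labels give neither strain, dose, age nor whether each sample is 1 animal, and the count columns are headed Con_Q, a prefix that no source used here explains. The sample titles name Q808 for 28 days. If the prefix refers to a control despite those titles, the levels are not those of treated hippocampus.

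P450 members could be read in replicate 2 alone. Its library held 15417009 counts, while the tables of replicates 1 and 3 used here hold the first 12 and 307 genes in alphabetical order, with 11402 and 298642 counts and no P450 gene. The levels therefore have no replicate check, and their 95% exact Clopper-Pearson intervals cover counting error only. Over the 307 genes that replicates 2 and 3 share, none of them a P450 gene, 117 had at least 100 and fewer than 1000 counts in replicate 2, and 113 of these lay within 1.5-fold between the replicates after scaling. Over all shared genes with at least 10 counts in both files, with no upper limit on counts, 218 of 243 did. Neuron, astrocyte and oligodendrocyte markers were all read, with medians of 574, 671 and 483 CPM (counts per 1000000 counts of the library) over 5 genes each, and 4 of 5 hippocampal field markers were read, Spink8 being at 0. In this bulk tissue, fewer cells of a type and less RNA per cell cannot be told apart.

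P450 enzymes are heme proteins that insert an oxygen atom into lipids, hormones and foreign compounds, drawing electrons from the reductase encoded by Por in the endoplasmic reticulum or from ferredoxin in mitochondria. Families 1 to 3 are best known from the liver, where they clear drugs and other xenobiotics. The remaining families mostly act on the body's own sterols, steroids, vitamins and fatty acids. In brain the family is known above all for cholesterol turnover: cholesterol is made on site, and neurons dispose of it by hydroxylation to an oxysterol that can cross the blood-brain barrier.

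The 25 members of families 1 to 3 were compared with the 28 members of the sterol, steroid, vitamin and fatty acid families. At least 10 counts, the minimum for calling a gene detected, were found for 12 of 25 (48.0%) and 13 of 28 (46.4%) of them, and for 26 of all 54 members (48.1%). Of all genes measured, 77.0% reached that minimum. From 1 count on, 41 members and 90.8% of all genes would count as detected, and from 50 counts on, 19 members and 65.0%. By count class, 13 of the 54 members had no count, 15 had 1 to 9, 13 had 10 to 99 and 13 had at least 100, a number that 58.6% of all genes reached. Grouped by family number and at 10 counts, the groups had nearly the same share of detected members, both below that of the table. From 1 count on, 19 of 25 and 21 of 28 were detected, and from 50 counts on, 7 of 25 and 11 of 28. The group medians were also close, at 0.519 and 0.486 CPM, against 12.7 CPM for all genes. Over detected members alone they were not, at 4.22 and 9.73 CPM. The reads themselves were split unevenly: families 1 to 3 held 13.3% of the 10403 P450 counts (95% interval 12.6 to 13.9), and the other group held 84.1% (83.4 to 84.8). Cyp20a1, an orphan of family 20 with no settled substrate, held the remaining 2.66%, with 277 counts, or 17.97 CPM (95% interval 15.9 to 20.2). No contrast between samples stands behind these shares, and they carry no p-value.

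The uneven split rested on a pair of sterol genes. Cyp46a1 alone held 37.7% of P450 counts (36.8 to 38.7) and Cyp51 held 28.7% (27.9 to 29.6). Among the counts that remained without both, families 1 to 3 held 39.5% (37.9 to 41.2) and the sterol, steroid, vitamin and fatty acid families 52.5% (50.9 to 54.2). Grouping by family number also matters. When the fatty acid enzymes Cyp2j and Cyp2u1 were moved to the fatty acid class, and the vitamin D enzymes Cyp2r1 and Cyp27b1 to the vitamin class, detected members became 7 for families 1 to 3 and 18 for the others, and the share of families 1 to 3 fell to 6.95% of P450 counts. Moving Cyp2j, Cyp2u1 and Cyp2r1 also made the first group smaller and the second larger, so 7 and 18 are not out of 25 and 28. The near-equal shares of detected members did not carry over to this grouping, where the share was lower for families 1 to 3. The medians then stood at 0.0973 CPM for families 1 to 3 and 1.04 CPM for the others. Transcript lengths were not available, so the shares are of reads, and an order of counts is not an order of transcript number.

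**Figure D1:**
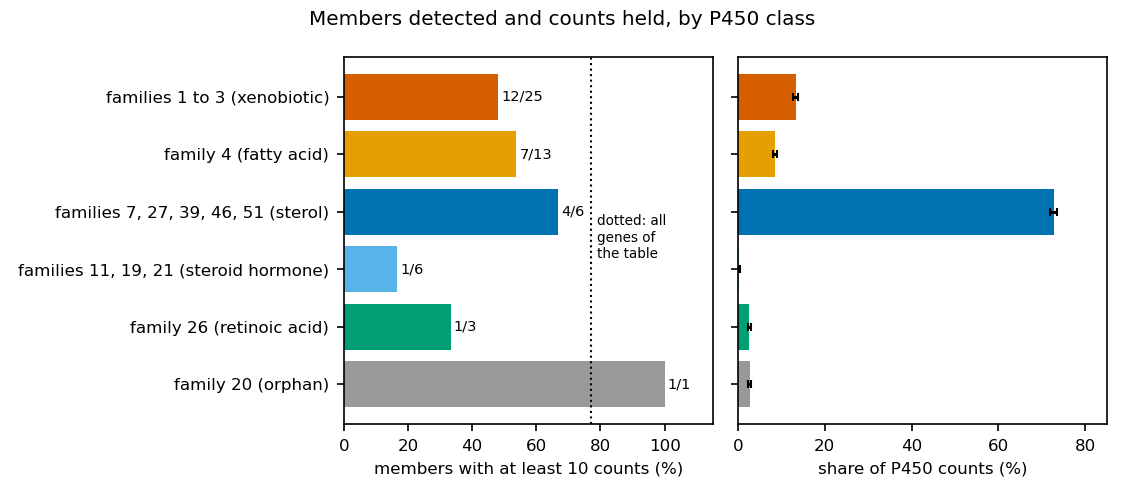
Left, percent of members with at least 10 counts in each P450 class, with members detected over members in the table beside each bar and the 77.0% of all genes as a dotted line; right, percent of all P450 counts held by each class, with 95% exact intervals, in replicate 2. The sterol families held 72.7% of the counts with 4 of 6 members detected, while families 1 to 3 held 13.3% with 12 of 25.

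The 250 bases before the RefSeq gene start are shown for 4 genes of widely differing counts, chosen after the counts were seen. They are Cyp46a1 and Cyp51, the genes with the most reads, Cyp1b1 of family 1, and Cyp2c11, a liver enzyme gene of family 2 with 4 counts here. Sequences and positions are those of RefSeq on build GRCr8, at chr6:133011740-133011989 (plus strand) for Cyp46a1, chr4:30991443-30991692 (plus strand) for Cyp51, chr6:21094315-21094564 (plus strand) for Cyp1b1 and chr1:246174966-246175215 (plus strand) for Cyp2c11. Each is written 5′ to 3′ on the gene's strand, and capitals mark CpG dinucleotides.
Cyp46a1: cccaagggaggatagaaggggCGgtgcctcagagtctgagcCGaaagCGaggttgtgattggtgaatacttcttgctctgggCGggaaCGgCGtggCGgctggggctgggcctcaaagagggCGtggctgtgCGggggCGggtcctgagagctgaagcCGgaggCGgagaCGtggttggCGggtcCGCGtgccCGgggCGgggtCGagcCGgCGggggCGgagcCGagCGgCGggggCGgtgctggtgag
Cyp51: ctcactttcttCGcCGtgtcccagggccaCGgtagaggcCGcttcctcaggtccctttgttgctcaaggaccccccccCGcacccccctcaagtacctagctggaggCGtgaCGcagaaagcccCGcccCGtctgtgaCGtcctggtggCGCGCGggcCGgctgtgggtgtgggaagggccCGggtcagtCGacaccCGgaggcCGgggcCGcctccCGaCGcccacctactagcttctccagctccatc
Cyp1b1: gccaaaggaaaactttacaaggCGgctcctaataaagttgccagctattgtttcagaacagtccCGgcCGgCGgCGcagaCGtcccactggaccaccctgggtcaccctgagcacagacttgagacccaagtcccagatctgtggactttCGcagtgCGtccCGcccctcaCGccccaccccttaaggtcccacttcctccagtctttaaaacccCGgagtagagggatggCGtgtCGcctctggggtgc
Cyp2c11: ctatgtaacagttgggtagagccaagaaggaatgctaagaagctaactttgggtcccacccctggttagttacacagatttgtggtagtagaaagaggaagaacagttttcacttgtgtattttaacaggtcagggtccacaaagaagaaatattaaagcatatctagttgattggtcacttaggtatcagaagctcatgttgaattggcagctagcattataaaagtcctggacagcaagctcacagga
These windows hold 26, 21, 13 and 0 CpG dinucleotides respectively, and 71.2%, 69.2%, 59.2% and 40.8% of their bases are G or C. Other members break this order. The Cyp2j3 window, with 309 counts for the gene, holds 5 CpG, and that of Cyp26a1, with 8 counts, holds 18. The windows of Cyp2e1 and Cyp4b1, with 11 and 14 counts, hold 0.

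Sterol P450 genes had the highest counts of the family. Cyp46a1, the cholesterol hydroxylase by which neurons remove cholesterol, had 3926 counts, or 255 CPM (95% interval 247 to 263), which ranked 731 among the 18560 genes. Cyp51, the lanosterol demethylase of cholesterol synthesis, had 2988 counts, or 194 CPM (95% interval 187 to 201) and ranked 1070. Both intervals lay far above those of every other P450 gene. An enzyme that makes cholesterol and one that breaks it down thus supplied most P450 reads. Both promoters shown above are rich in CpG, and whether this bears on their levels was not tested.

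Cyp7b1, which hydroxylates oxysterols and neurosteroids, came next with 552 counts, or 35.8 CPM (95% interval 32.9 to 38.9). Cyp27a1, the mitochondrial sterol hydroxylase, had 85 counts, or 5.51 CPM (95% interval 4.40 to 6.82). Those were the last sterol genes above the minimum. Cyp39a1, which acts on the product of Cyp46a1, had 4 counts, and Cyp27b1, which activates vitamin D in kidney, had 7. By the pathway annotation in the deposited table, 3 of the 4 members assigned to primary bile acid biosynthesis were detected, Cyp39a1 being the other. That share, 75.0%, is near the 77.0% of all genes.

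Genes that handle oxysterols next to Cyp46a1 were read as well. The oxysterol list had all 8 genes above the minimum and a median level of 24.8 CPM, where all genes have 77.0% above it and a median of 12.7 CPM. Apoe, the lipid carrier, had 3482 CPM (3453 to 3512), Abcg1, a sterol efflux transporter, had 105 CPM (99.7 to 110.0), and Nr1h2, the oxysterol receptor LXR beta, had 49.4 CPM (45.98 to 53.1). The related receptor gene Nr1h3 had 27 counts, and Ch25h, a cholesterol hydroxylase outside the P450 family, had 34. Within the receptor pair most reads belonged to Nr1h2.

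Steroid hormone P450 genes with a row were hardly read. No row carried the symbol Cyp17a1 or Cyp11b1, so the class was not covered in full. Only Cyp19a1, the aromatase that makes estradiol from testosterone, passed the minimum among the 6 members of families 11, 19 and 21, with 20 counts, or 1.30 CPM (95% interval 0.792 to 2.00). Cyp11a1, which starts steroid synthesis by cleaving the cholesterol side chain, and Cyp11b3 had no count. A count of 0 allows up to 3 counts as a one-sided 95% limit, or 0.195 CPM, and the two-sided exact interval used for the other genes would reach 0.239 CPM. Cyp11b2, the aldosterone synthase gene, and the pseudogene Cyp11b1-ps1 had 5 counts each, and the steroid hydroxylase gene Cyp21a1 had 2. The 4 members that the pathway annotation assigns to cortisol synthesis and secretion are Cyp11a1, Cyp11b2, Cyp11b3 and Cyp21a1. So 0 of 4 were detected there, against 77.0% of all genes. Low counts at this depth do not show that a few cells lack the transcripts.

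The other genes of the steroid list encode no P450 enzyme, and 7 of the 8 with a row passed the minimum, against 77.0% of all genes. The median level over the list was 1.78 CPM, under the 12.7 CPM of all genes. Hsd11b1, which regenerates active glucocorticoid, had 52.8 CPM (49.2 to 56.6), Hsd17b10 had 29.8 CPM (27.2 to 32.7) and Srd5a1, a steroid reductase gene of neurosteroid synthesis, had 24.5 CPM (22.1 to 27.1). Star, which carries cholesterol to Cyp11a1, had 15 counts, and Hsd11b2, which inactivates glucocorticoid, had none. The 3 genes named first encode enzymes that convert existing steroids, while Star and Cyp11a1 act at the first step from cholesterol. Other converting enzymes of the list were as low as Star, with 22 counts for Akr1c14, 12 for Hsd17b1 and none for Hsd11b2. Tspo had 33 counts. The list thus shows no split between these steps.

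Retinoic acid degradation was represented by 1 gene. Cyp26b1, which breaks down retinoic acid, had 263 counts, or 17.1 CPM (95% interval 15.1 to 19.3) and 97.0% of the counts of its family (94.3 to 98.7). Its relatives Cyp26a1 and Cyp26c1 had 8 and 0 counts. Of the retinoid and vitamin D list, 9 of 11 genes passed the minimum, at a median level of 6.75 CPM over the list, against 77.0% and 12.7 CPM for all genes. It was led by Aldh1a1, a retinaldehyde dehydrogenase gene, at 33.7 CPM (30.9 to 36.8), the receptor gene Rara at 21.99 CPM (19.7 to 24.5) and the binding protein gene Crabp1 at 8.95 CPM (7.52 to 10.6). Vitamin D genes had few reads: Vdr, the vitamin D receptor gene, had 1 count, next to 7 for Cyp27b1 and 16 for Cyp2r1, a vitamin D hydroxylase gene of family 2.

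**Figure D2:**
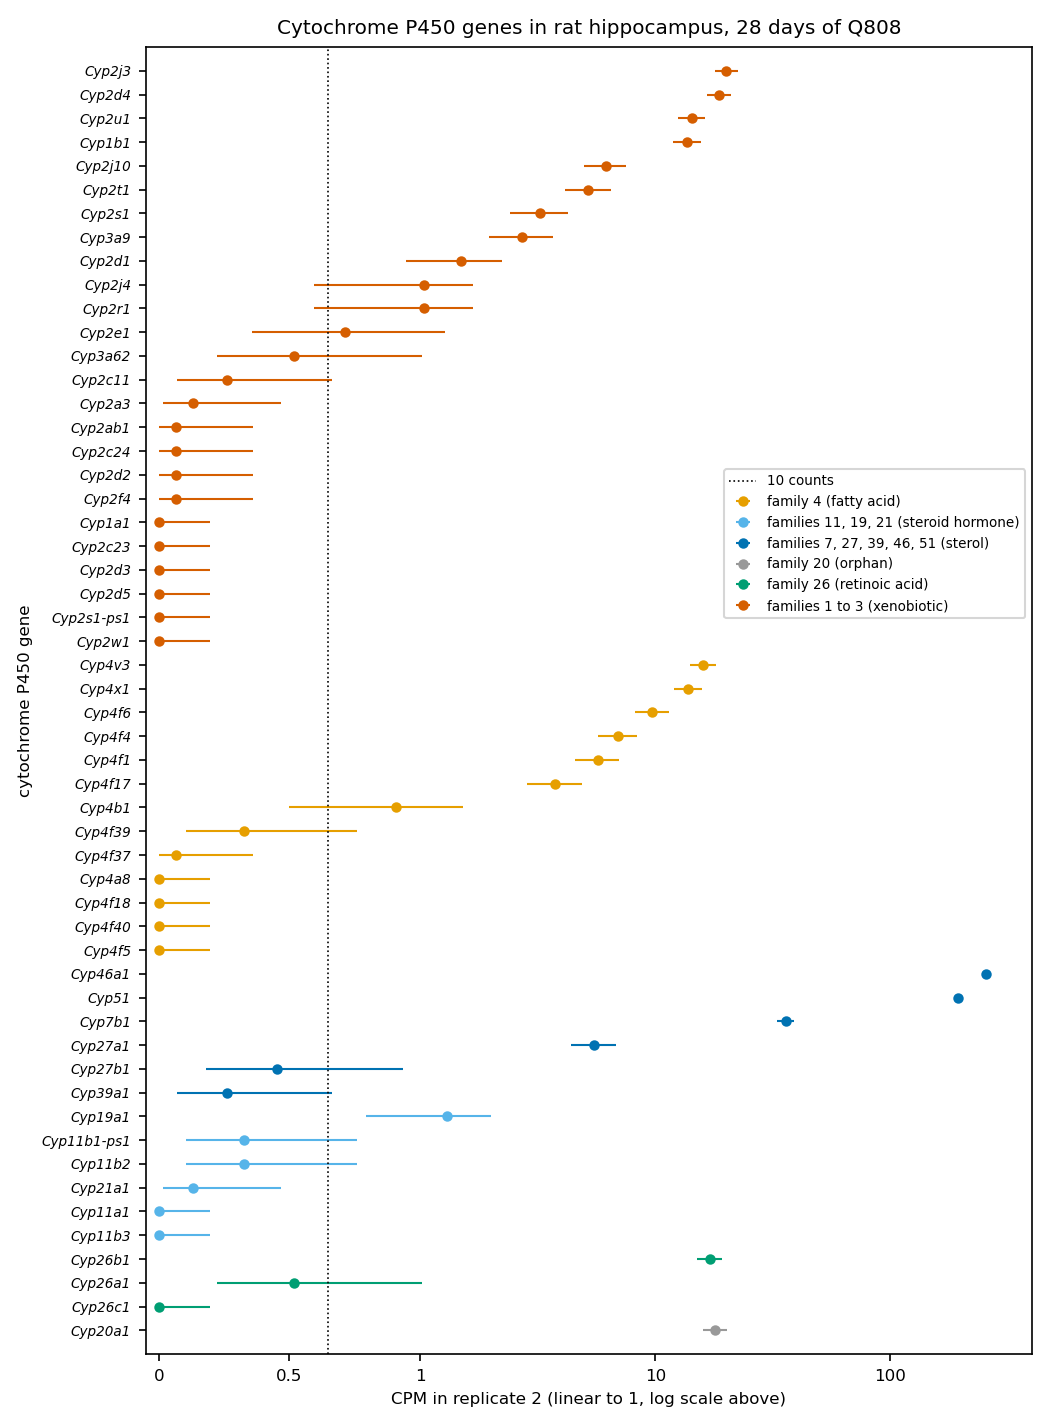
Level of each of the 54 P450 genes in replicate 2 in CPM, on an axis that is linear up to 1 and logarithmic above, coloured by class, with two-sided 95% exact intervals for genes with counts (for genes with no count the bar instead ends at the one-sided limit of 0.195 CPM) and the 10-count minimum as a dotted line. Cyp46a1 at 255 CPM and Cyp51 at 194 CPM stand apart, Cyp7b1 follows at 35.8 CPM, and no member of families 1 to 3 exceeds 20.04 CPM.

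Family 4 enzymes hydroxylate fatty acids and eicosanoids, and 7 of its 13 members were detected (53.8%). Of all P450 members 48.1% were detected, and of all genes 77.0%. Cyp4v3, a fatty acid hydroxylase gene, had 246 counts, or 15.96 CPM (95% interval 14.02 to 18.1), and Cyp4x1, a member known for its expression in brain, had 213 counts, or 13.8 CPM (95% interval 12.02 to 15.8). The intervals of these genes overlap. Subfamily 4f, which acts on leukotrienes and arachidonic acid, held 409 counts over 9 members, and 4 of them held nearly all: Cyp4f6 had 150 counts or 36.7% of the subfamily (32.0 to 41.6), Cyp4f4 had 107, Cyp4f1 had 88 and Cyp4f17 had 58. Cyp4f39 had 5 counts, Cyp4f37 had 1, and Cyp4f5, Cyp4f18 and Cyp4f40 had none. Cyp4b1 had 14 counts and Cyp4a8, related to the fatty acid hydroxylases of liver and kidney, had none.

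Families 1 to 3 had no member above 309 counts. The leading gene was Cyp2j3, an arachidonic acid epoxygenase gene, with 309 counts, or 20.04 CPM (95% interval 17.9 to 22.4). Cyp2d4, the drug and neurosteroid hydroxylase known as the main Cyp2d of rat brain, had 289 counts, or 18.7 CPM (95% interval 16.6 to 21.04). Cyp2u1, a fatty acid hydroxylase gene known from brain and thymus, had 220 counts, or 14.3 CPM (95% interval 12.4 to 16.3), and Cyp1b1, which acts on estrogens and polycyclic hydrocarbons, had 210 counts, or 13.6 CPM (95% interval 11.8 to 15.6). These 4 genes were the members of families 1 to 3 with at least 100 counts, and Cyp2j3 and Cyp2u1 are better known for fatty acids than for drugs.

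Below them, Cyp2j10 had 95 counts, Cyp2t1 had 80, Cyp2s1 had 50 and Cyp3a9, of the subfamily that clears many drugs, had 42. Cyp2d1 had 23 counts, Cyp2j4 and Cyp2r1 had 16 each, and Cyp2e1, the ethanol-inducible enzyme gene, had 11. The minimum of 10 counts fell between Cyp2e1 on the inside and Cyp3a62 and Cyp26a1, with 8 counts each, on the outside, and their intervals overlap. Which of these genes counts as detected is thus a matter of a few reads.

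The remaining members of families 1 to 3, several of them typical of liver, were at or near 0. No row carried the symbol Cyp1a2 or a Cyp2b symbol, so those genes were not assessed. Cyp1a1, the classical target of the aryl hydrocarbon receptor, had no count, as had Cyp2c23, Cyp2d3, Cyp2d5, Cyp2w1 and the pseudogene Cyp2s1-ps1. Cyp2c11, the main Cyp2c of male rat liver, had 4 counts, Cyp2a3 had 2, and Cyp2ab1, Cyp2c24, Cyp2d2 and Cyp2f4 had 1 each. Among hepatocyte markers, Alb had 4 counts, Apoa1 had 6, Serpina1 had 13, and Apoa2, Fgb and Apoh had none. Ttr, at 176 CPM, is also a choroid plexus marker, and the other 4 choroid markers lay between 2.21 and 4.86 CPM.

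**Figure D3:**
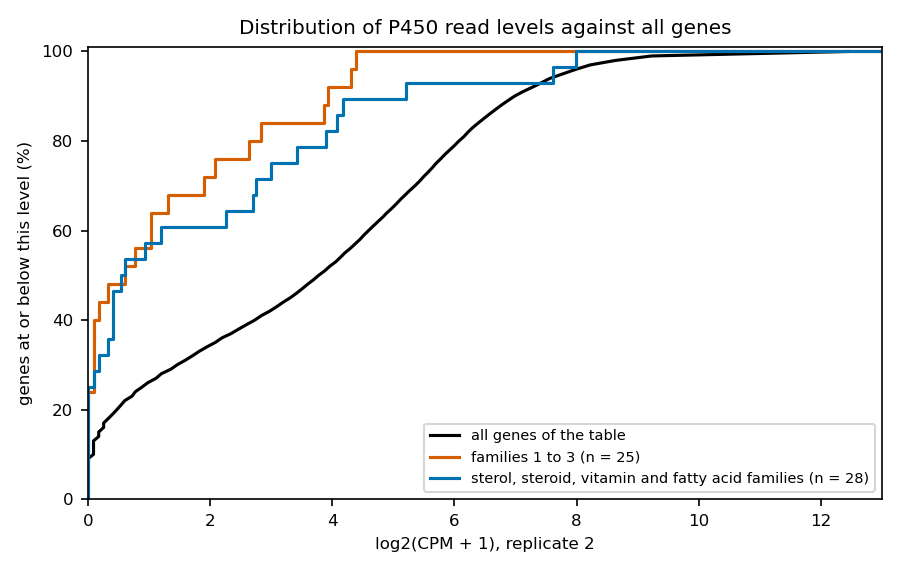
Cumulative share of genes at or below each level, as log2(CPM + 1) in replicate 2, for all genes of the table, the 25 members of families 1 to 3 and the 28 members of the sterol, steroid, vitamin and fatty acid families. Both P450 curves lie to the left of all genes over most of the range and close to each other at the bottom, with medians of 0.519 and 0.486 CPM against 12.7, and part at the top, where Cyp46a1 and Cyp51 extend the second group.

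Some neighbouring members of 1 subfamily were read very unequally, others alike. In RefSeq gene order the Cyp2d genes stand as Cyp2d4, Cyp2d5, Cyp2d1, Cyp2d3 and Cyp2d2, and their counts in that order were 289, 0, 23, 0 and 1. Cyp2d4 thus took 92.3% of the reads of its subfamily (88.8 to 95.03). Among the Cyp2j neighbours, Cyp2j10, Cyp2j4 and Cyp2j3 had 95, 16 and 309 counts, and Cyp2j3 took 73.6% (69.1 to 77.7). Cyp3a9 took 84.0% of the 50 counts of the 2 Cyp3a genes with a row (70.9 to 92.8). The neighbours Cyp4f1 and Cyp4f6 were closer, with 88 and 150 counts, and Cyp2c11 and Cyp2c24 were both low, with 4 and 1. Members of a subfamily are alike in sequence, and no source used here says how the authors' counting divided reads between them, so these shares are uncertain beyond their counting intervals.

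Partners of the P450 enzymes were widely read. The electron transfer list had all 12 genes above the minimum, against 77.0% of all genes. Its median level was 55.8 CPM, over the 12.7 CPM of all genes. At least 100 counts were found for 11 of the 12, against 58.6% of all genes. Pgrmc1, a heme-binding partner of P450 enzymes, had 285 CPM (277 to 293), Por, the reductase gene, had 125 CPM (119.5 to 131) and Pgrmc2 had 123 CPM (117 to 128). The mitochondrial chain was lower in reads for Fdx1 and its reductase Fdxr, at 10.4 and 10.2 CPM, and higher for Fdx2, at 54.2 CPM, a ferredoxin known for iron-sulfur cluster assembly.

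The xenobiotic sensing list had 9 of 12 genes above the minimum and a median level of 10.96 CPM, both near those of all genes (77.0% and 12.7 CPM). Arnt2, a neuronal partner of basic helix-loop-helix factors, had 164 CPM (158 to 170.4), the retinoid X receptor gene Rxrb had 74.6 CPM (70.3 to 79.03) and Tiparp, an aryl hydrocarbon receptor target, had 20.9 CPM (18.7 to 23.3). The aryl hydrocarbon receptor gene Ahr had 174 counts and its partner Arnt had 267. The drug sensors of liver had few reads: Nr1i2 (PXR) had 3 counts, Nr1i3 (CAR) had 21, the hepatocyte factor Hnf4a had 4, and Ahrr, a repressor induced by Ahr, had none. Without untreated samples these levels do not bear on whether Q808 engaged any sensor.

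The fatty acid epoxide and eicosanoid list had 9 of 10 genes above the minimum and a median level of 3.28 CPM, against 77.0% and 12.7 CPM for all genes. Ephx1 and Ephx2, the epoxide hydrolase genes that act after epoxygenases such as Cyp2j3, had 21.1 CPM (18.9 to 23.5) and 7.72 CPM (6.39 to 9.24), and the cyclooxygenase gene Ptgs2 had 16.2 CPM (14.3 to 18.4). The thromboxane and prostacyclin synthase genes Tbxas1 and Ptgis, which encode P450 proteins but carry no Cyp symbol, had 23 and 12 counts. In the deposited pathway annotation, 7 of 12 members assigned to arachidonic acid metabolism were detected (58.3%), led by Cyp2j3. The counts were 7 of 19 (36.8%) for steroid hormone biosynthesis and 3 of 12 (25.0%) for retinol metabolism. Of all P450 members 48.1% were detected, and of all genes 77.0%. Many members are assigned to several pathways.

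**Figure D4:**
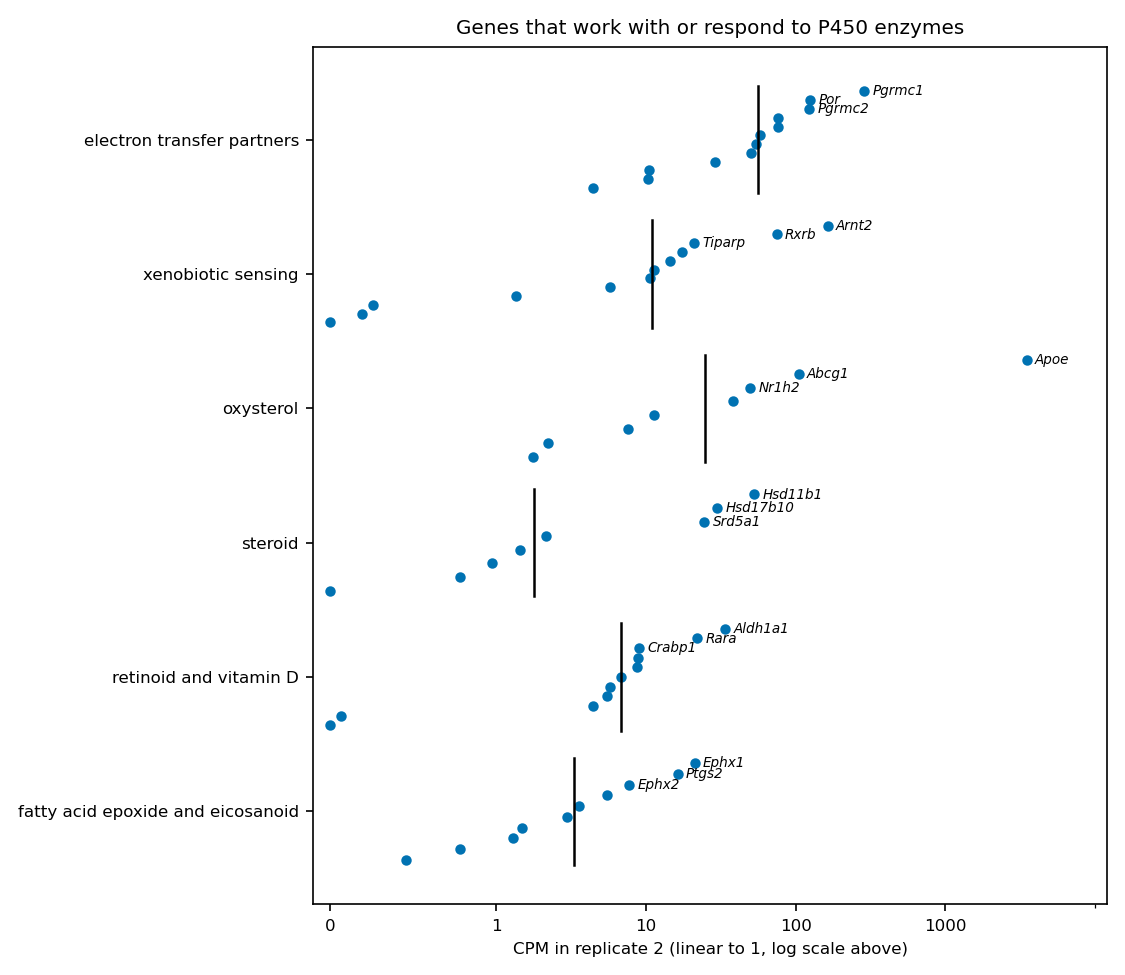
Levels in CPM in replicate 2, on an axis linear up to 1 and logarithmic above, of the genes of 6 lists that work with or respond to P450 enzymes; each point is a gene, the 3 highest are named and black lines mark list medians. The electron transfer list has the highest median, 55.8 CPM, and the steroid list the lowest, 1.78 CPM.

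CpG content of the promoter windows was higher, in the median, among detected members, with no test behind the difference. A RefSeq promoter was available for 43 of the 54 members. The ratio of observed to expected CpG dinucleotides in the 250 bases before the start had a median of 0.477 over the 21 detected members with a promoter and 0.176 over the 22 others. Over the whole table the medians were 0.73 for genes with at least 10 counts and 0.29 for those under 10, so the members followed the direction of the table at lower values. Cyp46a1 had the highest ratio of the family, 0.97, and Cyp26a1, with 8 counts, had the next, 0.83, so a CpG-rich promoter did not always go with reads. Cyp2j3 had a ratio of only 0.26 with 309 counts.

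Short motifs were searched on both strands of the same windows, and a match is a description of letters and not a binding site. The TATA box letters TATAAA were in 2 of 21 detected members and 10 of 22 undetected ones, against 6.52% and 16.3% of the table's promoters for genes detected and not. The GC box letters GGGCGG were in 12 of 21 (57.1%) and 4 of 22 (18.2%), close to the 57.4% and 24.9% of the table, and the Cyp46a1 window holds 6 of them. The core GCGTG of the element bound by the aryl hydrocarbon receptor was in 11 of 21 and 5 of 22, against 43.6% and 20.98%, with 2 matches in Cyp1b1 and 3 in Cyp46a1. CCAAT was in 11 of 21 and 12 of 22, against 34.9% and 36.3%, and the sterol regulatory letters TCACNCCAC were in none of the 43 windows, against 1.05% of all promoters of the table. GCGTG and GGGCGG contain CpG, so their shares move with CpG content.

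**Figure D5:**
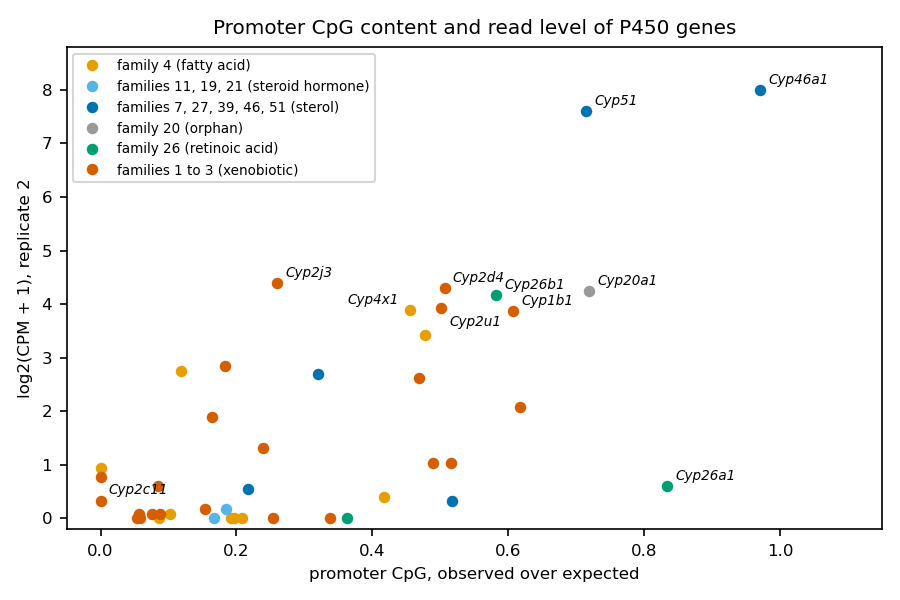
Ratio of observed to expected CpG in the 250 bases before the RefSeq start against log2(CPM + 1) in replicate 2 for the 43 P450 genes with a promoter, coloured by class. Cyp46a1 and Cyp51 stand at the upper right, at ratios of 0.97 and 0.71, and Cyp26a1 shows a ratio of 0.83 with 8 counts.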

How the data were processed

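Hippocampal total RNA was sequenced from 3 samples of 1 group, numbered 1 to 3 in their titles, and nothing in the labels says that each is a separate animal. Per the labels' protocols, bead-captured mRNA went into Vazyme libraries that were converted for an MGI sequencer. The deposited tables give raw counts for each gene, with no normalization. The submitters' processing notes name HISAT2, Bowtie2, Trimmomatic, SAMtools, HTSeq, StringTie, Cufflinks and DESeq, without saying what each was used for. No source used here gives the genome build of the counts or the strand setting, so reads of overlapping or near-identical genes could not be told apart further.

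Symbols came from a RefSeq table of assembly GRCr8, in which the gene identifiers of 17515 of 18560 rows were found. That table holds 104 genes named Cyp and a number. The 54 with a row were analysed, and the others were not analysed here. The tables of replicates 1 and 3 break off inside a row, so levels are those of replicate 2. They are CPM of its total, with 95% exact Clopper-Pearson intervals (SciPy 1.17.1). For P450 members with 100 or more counts, the intervals reached at most 20.8% from the value. Without molecular identifiers, reads are not independent molecules. The planned levels per coding length were not computed because no lengths were at hand. The spread between replicates 2 and 3 was edgeR's common biological coefficient of variation (4.0.16, TMM scaling, genes with at least 10 counts in each), with DESeq2 1.42.0 size factors as an alternative. The spread with TMM scaling was also run on simulated counts, and the DESeq2 alternative was not. Classes follow family number. Every member is accounted for, and the 3 highest genes of each partner list are named, while any other list gene was named after its values were seen. The members, classes and lists were chosen with earlier results of these data known, and the promoter windows and motifs after the counts were seen. Of the lists, Hsd3b1, Hsd3b2, Tat, Ahsg and Fabp1 had no row, and 1 gene first placed on the xenobiotic sensing list is not reported here, which leaves the 12 that are counted. The microglia, endothelium and mural, leptomeninges and blood marker lists had medians of 25.7, 22.1, 11.8 and 34.8 CPM.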

Additional observations from a re-analysis of the deposited data

How the results depend on the processing

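Counting a gene as detected from 1 count gave 41 P450 members, 19 of families 1 to 3 and 21 of the sterol, steroid, vitamin and fatty acid families, against 26, 12 and 13. From 50 counts they were 19, 7 and 11. Classing by usual substrate gave 7 and 18, with the first group smaller and the second larger than by family number. The shares of detected members were then no longer near-equal, the lower being that of families 1 to 3. This classing moved the share of families 1 to 3 from 13.3% to 6.95% of P450 counts. The class medians moved from 0.519 and 0.486 CPM to 0.0973 and 1.04 CPM. The order of the class medians thus depends on a few members. Without Cyp46a1 the share was 21.3%. Over members with at least 10 counts the medians were 4.22 and 9.73 CPM. Leaving out the 100 highest genes from the total, or the pseudogenes (chosen after seeing the data), moved the class medians by less than their counting interval. The coefficient of variation between replicates 2 and 3 was 0.170 over 243 genes, 0.184 with no filter and 0.169 with DESeq2 size factors. Over the 7 genes that reached 10 counts in every sample it was 0.0379 with 3 samples, and 0.0206 without replicate 2 to 0.0619 without replicate 3. So few genes say little of the spread. Leaving out replicate 2 ends every P450 value, and leaving out replicate 1 or 3 touches none. No paired analysis was possible because the series has 1 group only. Levels per coding kilobase were not run. At this depth, genes at 0 may still lie at up to 0.195 CPM (one-sided limit).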

Other observations

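Other enzyme families of drug metabolism, chosen after the P450 values were seen, were grouped by symbol in replicate 2. Of all genes, 77.0% had at least 10 counts. The shares of glutathione transferase genes (70.8%) and aldehyde dehydrogenase genes (80.0%) lay near that value. Glutathione transferases, which conjugate reactive compounds, had 17 of 24 genes with at least 10 counts and 881 CPM in all, led by Gstm7 at 209 CPM and Gstm1 at 166 CPM. Of the aldehyde dehydrogenase genes, 16 of 20 were detected, led by Aldh5a1, which clears the GABA breakdown product succinic semialdehyde, at 131 CPM. Sulfotransferase genes were detected in 5 of 12 cases, and Sult4a1, a brain sulfotransferase-like gene, had 447 of the 482 CPM of the group. Glucuronosyltransferases of the Ugt1, Ugt2 and Ugt3 groups had 0 of 7 genes detected, with 5 counts in all. Carboxylesterases had 1 of 7 genes detected (Ces5a, 12 counts), and flavin monooxygenases 3 of 8, led by Fmo1 with 86 counts. The 54 P450 genes had 675 CPM in all. These are levels in 1 library with no replicate check.

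A further 5 rows named as P450 genes in the deposited table had no RefSeq symbol. They held 7 counts in all, 4 of them in a row described as similar to the Cyp4f5 product.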
